A study of Mus musculus with 8 samples.

Results

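Large common fragile site genes were followed along their bodies in replication timing profiles of mouse embryonic stem cells. The 8 genes are Fhit, Wwox, Immp2l, Macrod2, Ctnna3, Lrp1b, Auts2 and Dlg2, the mouse orthologues of genes at human common fragile sites. They were taken by name, from a list drawn up with earlier results of these data known, and they are 8 of 12984 protein-coding genes with at least 3 scored windows, of which 552 span 300 kb or more. For each gene the mean score over the body and the gradient along it were taken in every profile.

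Common fragile sites are chromosome regions that form gaps and breaks in metaphase when DNA replication is mildly impaired. Many lie within very long genes, replicate late in S phase and have few active origins in their interior, so that forks from the flanks must travel far to finish them. Which sites break differs between cell types, along with the timing and transcription of these genes. Fragility itself was not measured here.

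The mouse embryonic stem cells were of the E14Tg2a line, and their CTCF, the zinc finger protein that marks loop anchors and insulator sites, carried an auxin-inducible degron. The auxin group received 500 µM indole-3-acetic acid for 2 days, and the control group carried the same degron and received none. Cells were labelled with BrdU for 2 h, sorted into early and late S phase by DNA content, and the labelled DNA of each fraction was sequenced. The 8 libraries make 4 profiles, 2 per group, because each profile joins an early and a late library of the same replicate number. No cells without the degron were given auxin, so loss of CTCF and auxin itself cannot be told apart. The labels do not say whether the replicates came from separate cultures or clones, so every p-value measures the spread between these profiles, which may be technical. Neither RNA nor protein was measured, so stem cell markers and the level of CTCF could not be checked.

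Each profile holds a timing score at 316864 windows on a 6-kb grid of the mm10 build. A higher score means earlier replication, and scores have a genome-wide SD of 2.10. All values below are in score units, and neither the labels nor the headers give the log base of the score. The read depth behind the scores is unknown. The share of grid positions with a score differed widely among the genes. Wwox was scored at 100% of positions, Auts2 at 98.9%, Immp2l at 97.4% and Fhit at 86.7%. Macrod2 had scores at 68.0%, Dlg2 at 64.2%, Ctnna3 at 51.0% and Lrp1b at 25.0% of positions, so the last of these rests on 86 windows over 2058 kb.

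Sequences around start sites are shown for 2 genes, Fhit because the scores around its start differed most between the groups of all member starts with a sequence, and Ctnna3 because its early and late starts lie within one gene. All are RefSeq promoters of GRCm38.p6, which shares its coordinates with mm10, and run from 250 bases before to 50 bases after a start site. Capitals mark CG dinucleotides, of which the median over all 32851 promoters is 7, and 43.5% of promoters hold at least 10. The promoter at the 5′ end of Fhit, on the minus strand at chr14:11161986-11162285, holds 12.
Fhit promoter: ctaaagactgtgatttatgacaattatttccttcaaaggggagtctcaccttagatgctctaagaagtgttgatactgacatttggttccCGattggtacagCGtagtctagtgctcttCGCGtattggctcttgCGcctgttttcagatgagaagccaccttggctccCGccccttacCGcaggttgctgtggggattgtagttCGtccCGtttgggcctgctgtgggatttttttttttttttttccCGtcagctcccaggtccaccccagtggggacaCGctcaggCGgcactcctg
In the 60 kb around this start, 9 windows averaged -1.72 and -1.99 in the control profiles and -1.13 and -0.57 in the auxin profiles. Both auxin profiles lay above both control profiles, by 1.01 on average. The upstream start of Ctnna3, on the plus strand at chr10:63429848-63430147, holds 39 CG dinucleotides, and the start 391 kb further into the gene at chr10:63820805-63821104 holds 2.
Ctnna3 upstream promoter: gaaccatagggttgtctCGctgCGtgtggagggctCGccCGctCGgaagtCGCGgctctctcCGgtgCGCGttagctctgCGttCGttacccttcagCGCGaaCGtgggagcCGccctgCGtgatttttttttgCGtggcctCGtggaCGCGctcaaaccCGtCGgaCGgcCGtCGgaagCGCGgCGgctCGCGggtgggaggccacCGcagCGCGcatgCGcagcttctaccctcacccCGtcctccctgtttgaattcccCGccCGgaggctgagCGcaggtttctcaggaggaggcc
Ctnna3 internal promoter: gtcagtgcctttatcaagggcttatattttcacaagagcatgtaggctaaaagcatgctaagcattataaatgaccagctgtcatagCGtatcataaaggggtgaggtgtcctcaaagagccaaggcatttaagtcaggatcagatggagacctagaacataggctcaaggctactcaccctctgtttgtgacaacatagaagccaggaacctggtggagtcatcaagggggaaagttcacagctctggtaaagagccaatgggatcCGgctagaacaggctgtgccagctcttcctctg
Scores in the 60 kb around the upstream start were 2.70 and 2.94 in control and 2.01 and 2.46 with auxin. Around the internal start they were -2.46 and -2.38 in control and -2.49 and -2.45 with auxin. The upstream start was thus early and the internal start late in all 4 profiles. High CG content and early timing did not go together at every member start. A further Ctnna3 start, 27.4 kb into the gene, holds 7 CG and averaged 2.40 in control and 2.03 with auxin. The 2 listed Macrod2 promoters overlap and share the same 9 windows, so they count as a single region. Each holds 33 CG, and the region averaged -1.18 in control and -1.45 with auxin. The RefSeq table matched 5 of the 8 genes by symbol, with 11 promoters.

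As a group the 8 genes replicated late with and without auxin. Their median gene body score was -1.79 in control and -1.82 with auxin, against 1.84 and 1.78 over all 12984 genes and -1.64 and -1.62 over the 552 long genes. A mean control score below -0.5 was taken as late, and 7 of the 8 genes were late by it (87.5%), against 19.2% of all genes and 70.5% of the long ones. The exception was Immp2l. In control the order from late to early was Lrp1b (-2.66 ± 0.27), Macrod2 (-2.63 ± 0.0034), Fhit (-2.23 ± 0.16), Dlg2 (-1.83 ± 0.19), Ctnna3 (-1.75 ± 0.11), Wwox (-1.30 ± 0.09), Auts2 (-0.72 ± 0.05) and Immp2l (-0.25 ± 0.04), each a mean ± SD over 2 profiles. Lrp1b and Macrod2 did not differ beyond their spread, nor did Dlg2 and Ctnna3, and the other neighbours in the order did not overlap. With auxin the order of the means was unchanged, but Fhit overlapped Dlg2, and Ctnna3 overlapped both Dlg2 and Wwox.

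**Figure D1:**
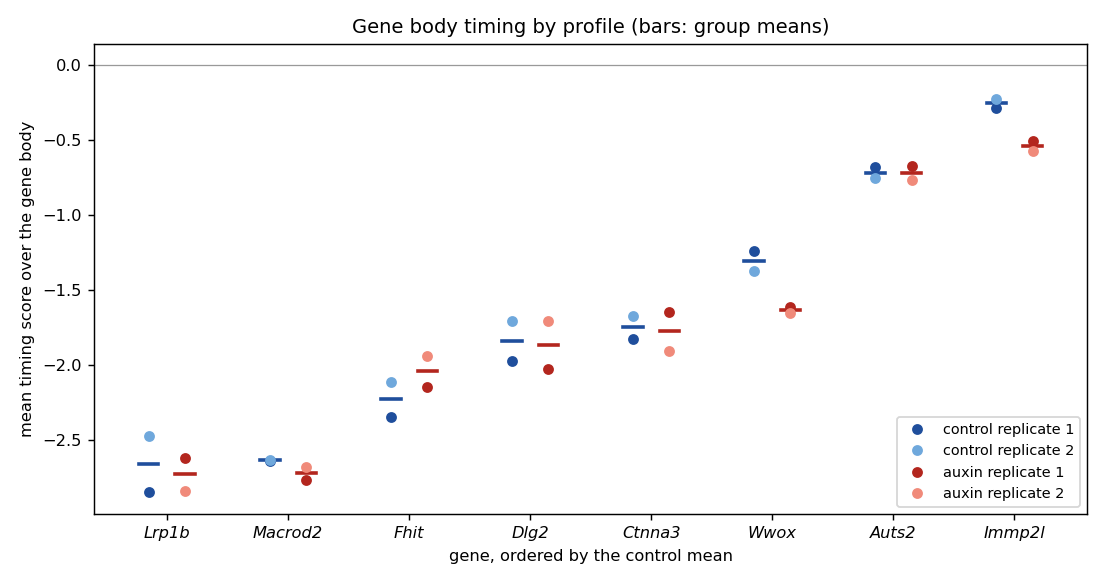
Mean timing score over each gene body (vertical axis, score units) in the 2 control profiles (blue) and 2 auxin profiles (red), with bars at the group means and genes ordered by the control mean. Auxin points lie below both control points for Wwox, Immp2l and Macrod2, and the groups overlap for the other 5 genes.

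No gene body passed the test of auxin against control. With limma and Benjamini-Hochberg adjustment, 0 of the 8 members passed an adjusted p under 0.05, against a background of 0% of 12984 genes, and 2849 genes but none of the members had an unadjusted p under 0.05. The median difference, auxin minus control, was -0.05 over the 8 genes, -0.02 over all genes and 0.04 over the long genes. Of the 8 differences 7 were below 0 and 1 was above, and they ran from -0.33 for Wwox to 0.19 for Fhit. Of all genes 6812 of 12984 were below 0, and of the long genes 251 of 552. Among the 7, Ctnna3, Lrp1b, Auts2 and Dlg2 changed sign when some single profiles were left out. The groups did not overlap for 3 of 8 genes, against 53.5% of all genes and 61.1% of the long genes, and in all 3 the auxin profiles were lower, as in 29.4% of all genes. When the variance was allowed to depend on the number of windows, 740 genes passed (5.7%) and still none of the 8. Fitted among the 552 long genes alone, 101 genes passed (18.3%) and again none of the 8.

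The gradient, the least-squares slope of the score along the gene in score per Mb, likewise passed for 0 of 8 members and 0% of the 2353 genes with at least 17 windows. Of those genes 255, and none of the 8, had an unadjusted p under 0.05. With a variance that depends on the number of windows, 24 genes passed (1.02%), and 2 of them were members. Auts2 was among those that became more positive (0.467% of genes) and Wwox among those that became more negative (0.552%). The slopes of the groups did not overlap for 4 of 8 members, against 45% of genes. The fit with the window-dependent variance used all 4 profiles and was not repeated without single profiles. The difference between the last and the first 10% of windows passed for 0 of 8 members and 7.8% of the 449 genes with at least 50 windows. Of those 449 genes 87 had an unadjusted p under 0.05, among them Fhit and Auts2. The groups did not overlap in this difference for 5 of 8 members, against 52.3% of genes. In 50-kb bins, 0 of 199 tested bins within the genes passed, against 1.66% of 42710 bins genome-wide (0.637% earlier and 1.02% later), and 21 of the 199 had an unadjusted p under 0.05. Without control replicate 1 the genome-wide count of bins fell from 707 to 127, and without any one of the other profiles it was 0, so the called bins named below were not called without control replicate 2 or without either auxin replicate. Of all 42710 bins, 26.1% were lower with auxin without overlap of the groups and 26.4% were higher. Counts of such bins below stand against these shares, and neighbouring bins may not be independent.

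Fhit encodes a hydrolase of diadenosine polyphosphates and lies on the minus strand at chr14:9550092-11162061, a span of 1612 kb. Its body scored -2.34 and -2.11 in control and -2.14 and -1.93 with auxin. The auxin mean was 0.19 higher (95% interval -0.27 to 0.65, limma adjusted p = 0.616), and the groups overlapped. With single profiles left out the difference ran from 0.07 to 0.30. All 234 windows were late in both groups. The gradient from the 5′ to the 3′ end was 0.10 and 0.37 per Mb in control and 0.17 and -0.07 with auxin, which overlapped. Scores in the last 10% minus the first 10% of windows were 0.12 and 0.58 in control and -0.20 and -0.40 with auxin, so that both auxin profiles lay below both controls. The difference of -0.65 had a 95% interval of -1.25 to -0.05 and a limma adjusted p of 0.196.

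The largest differences in Fhit were in the bins nearest its 5′ end. The bin 37.1 kb into the gene scored -1.79 and -2.17 in control and -1.10 and -0.73 with auxin, a difference of 1.06 with a limma adjusted p of 0.0523. The next bin stood at -2.27 ± 0.08 in control and -1.47 ± 0.15 with auxin, 0.80 higher (adjusted p = 0.0733). From 187 kb onward the differences of single bins ran from -0.54 to 0.49. In all, 11 of 32 bins were higher with auxin without overlap and 1 was lower, and 8 of the 11 lay beyond 187 kb. From the 5′ end to the midpoint the score was 0.25 higher with auxin, and from there to the 3′ end 0.13 higher. The 500 kb upstream of Fhit scored 0.23 and 0.25 in control and 0.90 and 0.92 with auxin, which were apart by 0.68. Of the 10 bins there 9 were higher without overlap, against 26.4% of bins genome-wide. Of these 10, 1 passed the test as earlier, at chr14:11250001-11300000, 87.9 kb upstream, against 0.637% of bins genome-wide. The score of that bin was -0.90 ± 0.03 in control and 0.10 ± 0.03 with auxin (limma adjusted p = 0.0471). The 500 kb downstream gave -1.42 ± 0.23 and -1.36 ± 0.07. Ptprg, a receptor tyrosine phosphatase gene that starts 391 kb beyond the 5′ end of Fhit, had a body mean of 0.58 in both groups.

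Wwox encodes a WW domain oxidoreductase and spans 913 kb at chr8:114439635-115352712. No strand was given for it in the tables used here, so distances run from the lower coordinate. Its body scored -1.24 and -1.37 in control and -1.61 and -1.65 with auxin. Both auxin profiles were lower than both controls, and this was the largest gene body difference of the 8. Among the 552 long genes, 71.7% had a smaller absolute difference. The difference, -0.33, had a 95% interval of -0.75 to 0.10 and a limma adjusted p of 0.339, or 0.0616 with the variance that depends on window number. The slope was -0.52 and -0.87 per Mb in control and -1.61 and -1.57 with auxin. The slopes did not overlap and differed by -0.89, with an adjusted p of 0.735 in limma with one prior variance (95% interval -3.35 to 1.56) and 0.0471 with the window-dependent variance (95% interval -1.30 to -0.49). Among the 534 long genes with a slope, 59.4% had a smaller absolute difference in slope. The last 10% minus the first 10% of windows gave -1.02 and -1.09 in control and -1.57 and -1.67 with auxin (difference -0.56, limma adjusted p = 0.291).

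The groups differed most on the higher-coordinate side of Wwox. On the lower side of the midpoint the score was -1.21 ± 0.02 in control and -1.32 ± 0.0024 with auxin, and on the higher side it was -1.40 ± 0.16 and -1.95 ± 0.05. Of 18 bins 12 were lower with auxin without overlap, against 26.1% genome-wide. Another 2 were higher, against 26.4% genome-wide, at 35.4 and 135 kb from the lower end. The largest difference, at chr8:115100001-115150000, took the score from -1.13 ± 0.27 to -1.95 ± 0.28, a difference of -0.82 (limma adjusted p = 0.0937). The same sign went on beyond the gene. In the 500 kb on the higher side the score was -2.84 ± 0.10 in control and -3.28 ± 0.21 with auxin. Of 10 bins there 4 were lower without overlap, against 26.1% genome-wide. The test was passed as later by 2 of the 10, against 1.02% of bins genome-wide. The larger of these, at chr8:115400001-115450000, scored -2.20 ± 0.18 in control and -3.32 ± 0.30 with auxin (limma adjusted p = 0.0473). Clec3a, a C-type lectin gene 11.5 kb from the lower end, stood at -0.80 ± 0.01 in control and -0.48 ± 0.26 with auxin over 3 windows (adjusted p = 0.396).

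Immp2l encodes a subunit of the mitochondrial inner membrane peptidase and lies on the plus strand at chr12:41024061-41955588. It was the earliest of the 8, with body scores of -0.28 and -0.22 in control and -0.50 and -0.57 with auxin. Both auxin profiles were lower, and the difference was -0.28 (95% interval -0.70 to 0.14, limma adjusted p = 0.403, or 0.0897 with the window-dependent variance). The share of late windows was 36.2% on the control mean and 63.2% on the auxin mean, while the early share, above 0.5, was 11.2% and 12.5%. By profile the late share was 38.8% and 40.8% in control and 56.6% and 66.4% with auxin. Control bins between 151 and 801 kb into the gene scored between -0.68 and 0.22, close to the -0.5 boundary of the late class.

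The scores of Immp2l were lower along most of its length, while its slope overlapped between the groups. The slope was -1.86 and -1.27 per Mb in control and -1.52 and -1.79 with auxin. The bin at the 5′ end scored 1.76 ± 0.23 in control and 1.53 ± 0.09 with auxin, and the last bin -1.46 ± 0.07 and -1.71 ± 0.18. Of 19 bins 14 were lower with auxin without overlap and 0 were higher, against 26.1% and 26.4% of bins genome-wide. The largest difference, -0.64, was at chr12:41450001-41500000 (limma adjusted p = 0.121). That bin covers Lrrn3, a leucine-rich repeat neuronal gene inside Immp2l, whose 7 windows scored -0.37 and -0.50 in control and -1.27 and -1.08 with auxin. Its difference of -0.74 had a limma adjusted p of 0.0926. The 500 kb upstream of Immp2l differed by 0.07, with 0.73 ± 0.05 in control and 0.80 ± 0.17 with auxin.

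**Figure D2:**
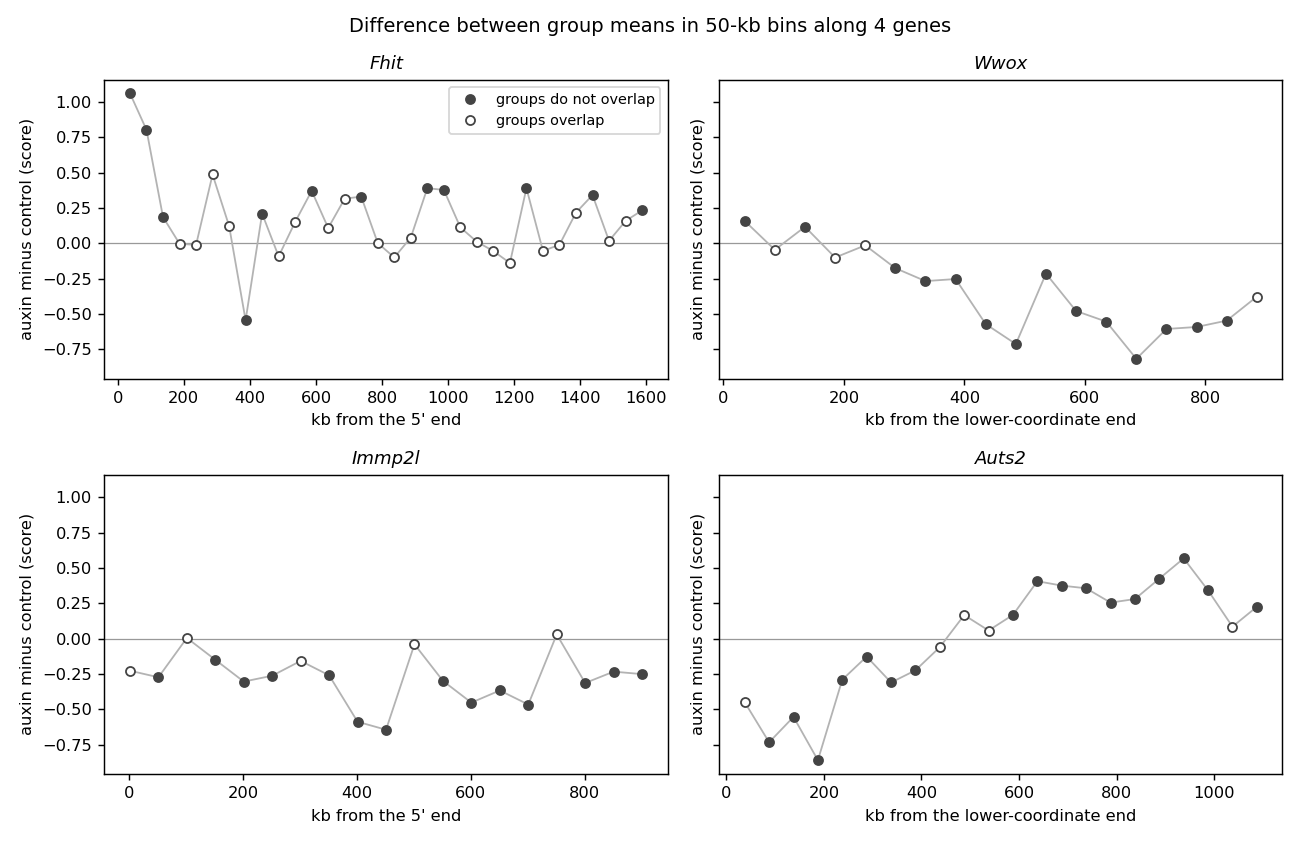
Difference between the group means, auxin minus control (vertical axis, score units), in 50-kb bins against distance along Fhit, Wwox, Immp2l and Auts2 (horizontal axis, kb), with filled points where the 2 profiles of one group do not overlap those of the other. Fhit starts at 1.06 and lies between -0.54 and 0.49 from 187 kb onward, Wwox falls below 0 along the gene, Immp2l lies mostly below 0, and Auts2 crosses from -0.86 at its lowest to 0.57 at its highest.

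Macrod2 encodes a hydrolase that removes ADP-ribose from proteins, and lies on the plus strand at chr2:140395303-142392966. It was late throughout, with all 227 windows late in both groups. Its body scored -2.64 and -2.63 in control and -2.76 and -2.68 with auxin. The auxin profiles were both lower, but the difference was -0.09 (95% interval -0.51 to 0.33, limma adjusted p = 0.815). The slope was -0.42 and -0.45 per Mb in control and -0.24 and -0.22 with auxin, a flatter line without overlap (difference 0.20, limma adjusted p = 0.949). The groups differed most at the 5′ end. In the first 20% of the gene the score was -2.16 ± 0.06 in control and -2.45 ± 0.05 with auxin, and in the last 20% it was -2.94 ± 0.03 and -2.86 ± 0.07. The bin 29.7 kb into the gene stood at -1.37 ± 0.14 and -1.92 ± 0.17 (limma adjusted p = 0.176). Upstream of Macrod2 8 of 10 bins were lower with auxin without overlap, against 26.1% of bins genome-wide. The 500 kb there scored 0.49 and 0.82 in control and 0.03 and 0.32 with auxin. Flrt3, an adhesion gene inside Macrod2, scored -2.53 ± 0.12 in control and -2.87 ± 0.11 with auxin over 3 windows (limma adjusted p = 0.337).

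Ctnna3 encodes alpha-T-catenin, which links cadherin junctions to actin, and lies on the plus strand at chr10:63430098-65003667. It held the steepest fall in timing of the 8 genes. The bin 44.9 kb from its 5′ end scored 2.11 ± 0.46 in control, and the bin 495 kb from it scored -3.55 ± 0.45, a range of 5.67 score units. With auxin the range was 5.19, from 1.88 ± 0.24 to -3.31 ± 0.0019. Beyond this fall the gene stayed late, with -2.99 ± 0.20 in control and -2.99 ± 0.32 with auxin over 40 windows past the midpoint. The auxin profiles parted most in the bin 995 kb into the gene, which holds 4 windows. That bin scored -3.14 and -3.08 in control and -1.99 and -3.84 with auxin. The body mean was -1.82 and -1.67 in control and -1.64 and -1.90 with auxin, which overlapped (difference -0.03, 95% interval -0.48 to 0.43, limma adjusted p = 0.954). The slope was -2.93 and -2.92 per Mb in control and -2.69 and -2.87 with auxin, higher by 0.15 without overlap (limma adjusted p = 0.956). A Theil-Sen slope, the median slope between pairs of bins, was -0.68 per Mb in control and -1.09 with auxin, so the sign of the difference turned. The last 10% minus the first 10% of windows gave -4.93 and -5.52 in control and -4.71 and -5.02 with auxin, the largest end-to-end drop of the 8 genes in every profile. Of 23 tested bins 2 were lower and 2 were higher without overlap. Lrrtm3, a synaptic adhesion gene inside Ctnna3, scored -3.33 ± 0.07 in control and -3.29 ± 0.0035 with auxin.

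Lrp1b encodes a large endocytic receptor of the LDL receptor family and spans chr2:40595290-42653598, with no strand given in the tables used here. It was the most sparsely scored of the 8 genes. Its control mean was the lowest, though in control replicate 2 Macrod2 was lower. Its body scored -2.85 and -2.47 in control and -2.62 and -2.84 with auxin, which overlapped (difference -0.07, 95% interval -0.56 to 0.43, limma adjusted p = 0.882). The slope was -0.47 and -0.07 per Mb in control and -0.16 and 0.23 with auxin, again overlapping. The range over its 14 tested bins was 0.97 in control and 0.90 with auxin, the smallest in both groups. Its other bins, of 35 with a score, held fewer than 3 windows and were left out of this range. Among these, the bin 1880 kb from the lower end scored -4.08 and -2.48 in control. The bin at chr2:40800001-40850000, with 4 windows, differed most, at -2.25 ± 0.15 in control and -3.12 ± 0.15 with auxin (difference -0.87, limma adjusted p = 0.0646).

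Auts2 encodes a nuclear protein of neural development found with Polycomb group proteins, and spans chr5:131437333-132543220, with no strand given in the tables used here. Its body mean hid opposite differences at its sides. The mean was -0.68 and -0.75 in control and -0.67 and -0.77 with auxin, with a difference of -0.0046 (95% interval -0.43 to 0.42, limma adjusted p = 0.993). On the lower side of the midpoint the score was 0.20 and 0.16 in control and -0.09 and -0.17 with auxin. On the higher side it was -1.59 and -1.69 in control and -1.28 and -1.39 with auxin. The early side differed by -0.31 and the late side by 0.31, each without overlap.

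The slope of Auts2 was -2.71 and -2.69 per Mb in control and -1.69 in both auxin profiles. This was the largest difference in slope of the 8 genes, 1.01 per Mb flatter with auxin. Its limma adjusted p was 0.709 with one prior variance (95% interval -1.42 to 3.43) and 0.0062 with the window-dependent variance (95% interval 0.72 to 1.30). Among the 534 long genes with a slope, 64.6% had a smaller absolute difference. The last 10% minus the first 10% of windows gave -1.51 and -1.50 in control and -0.96 and -0.66 with auxin, a difference of 0.69 (limma adjusted p = 0.160). With 20% at each end the difference was 0.94 (limma adjusted p = 0.0422). The share of early windows was 18.6% in control and 4.92% with auxin, and the range over bins was 3.43 and 2.52. Of 22 bins 7 were lower with auxin without overlap, all within 388 kb of the lower end. Another 10 were higher without overlap, all from 588 kb onward. Genome-wide these shares were 26.1% and 26.4% of bins. The most negative bin, at chr5:131600001-131650000, scored 1.16 ± 0.37 in control and 0.30 ± 0.02 with auxin (limma adjusted p = 0.0791).

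Beyond both ends of Auts2 the scores were higher with auxin. On the lower side 9 of 10 bins were higher without overlap, against 26.4% of bins genome-wide. The 500 kb there scored -0.72 and -0.89 in control and -0.31 and -0.32 with auxin. On the higher side 5 of 10 bins were higher without overlap, and the 500 kb scored -1.24 ± 0.23 in control and -0.94 ± 0.08 with auxin. Galnt17, a glycosyltransferase gene 130 kb from the lower end, scored -0.95 and -1.15 in control and -0.48 and -0.44 with auxin. Its difference of 0.59 had a limma adjusted p of 0.138, or 0.0153 with the window-dependent variance.

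Dlg2 encodes the postsynaptic scaffold PSD-93 and lies on the plus strand at chr7:90476188-92449246. Like Ctnna3 it ran from an early 5′ end to a late interior. The bin 48.8 kb into the gene scored 1.46 ± 0.55 in control and 1.21 ± 0.19 with auxin, and the range over bins was 4.84 and 4.62. Scores came up again towards the 3′ end, to -1.57 ± 0.04 and -1.35 ± 0.08 in the last bin. The body mean was -1.97 and -1.70 in control and -2.03 and -1.71 with auxin, which overlapped (difference -0.03, 95% interval -0.52 to 0.46, limma adjusted p = 0.949). The slope was -1.44 and -1.68 per Mb in control and -1.54 and -1.56 with auxin, a difference of 0.0051. The last 10% minus the first 10% of windows gave -3.06 and -3.46 in control and -2.98 and -3.02 with auxin (difference 0.26, limma adjusted p = 0.701), and with single profiles left out the difference ran from 0.06 to 0.46. The largest bin difference was 0.66, 399 kb into the gene, from -1.90 ± 0.49 to -1.24 ± 0.32 (limma adjusted p = 0.196).

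**Figure D3:**
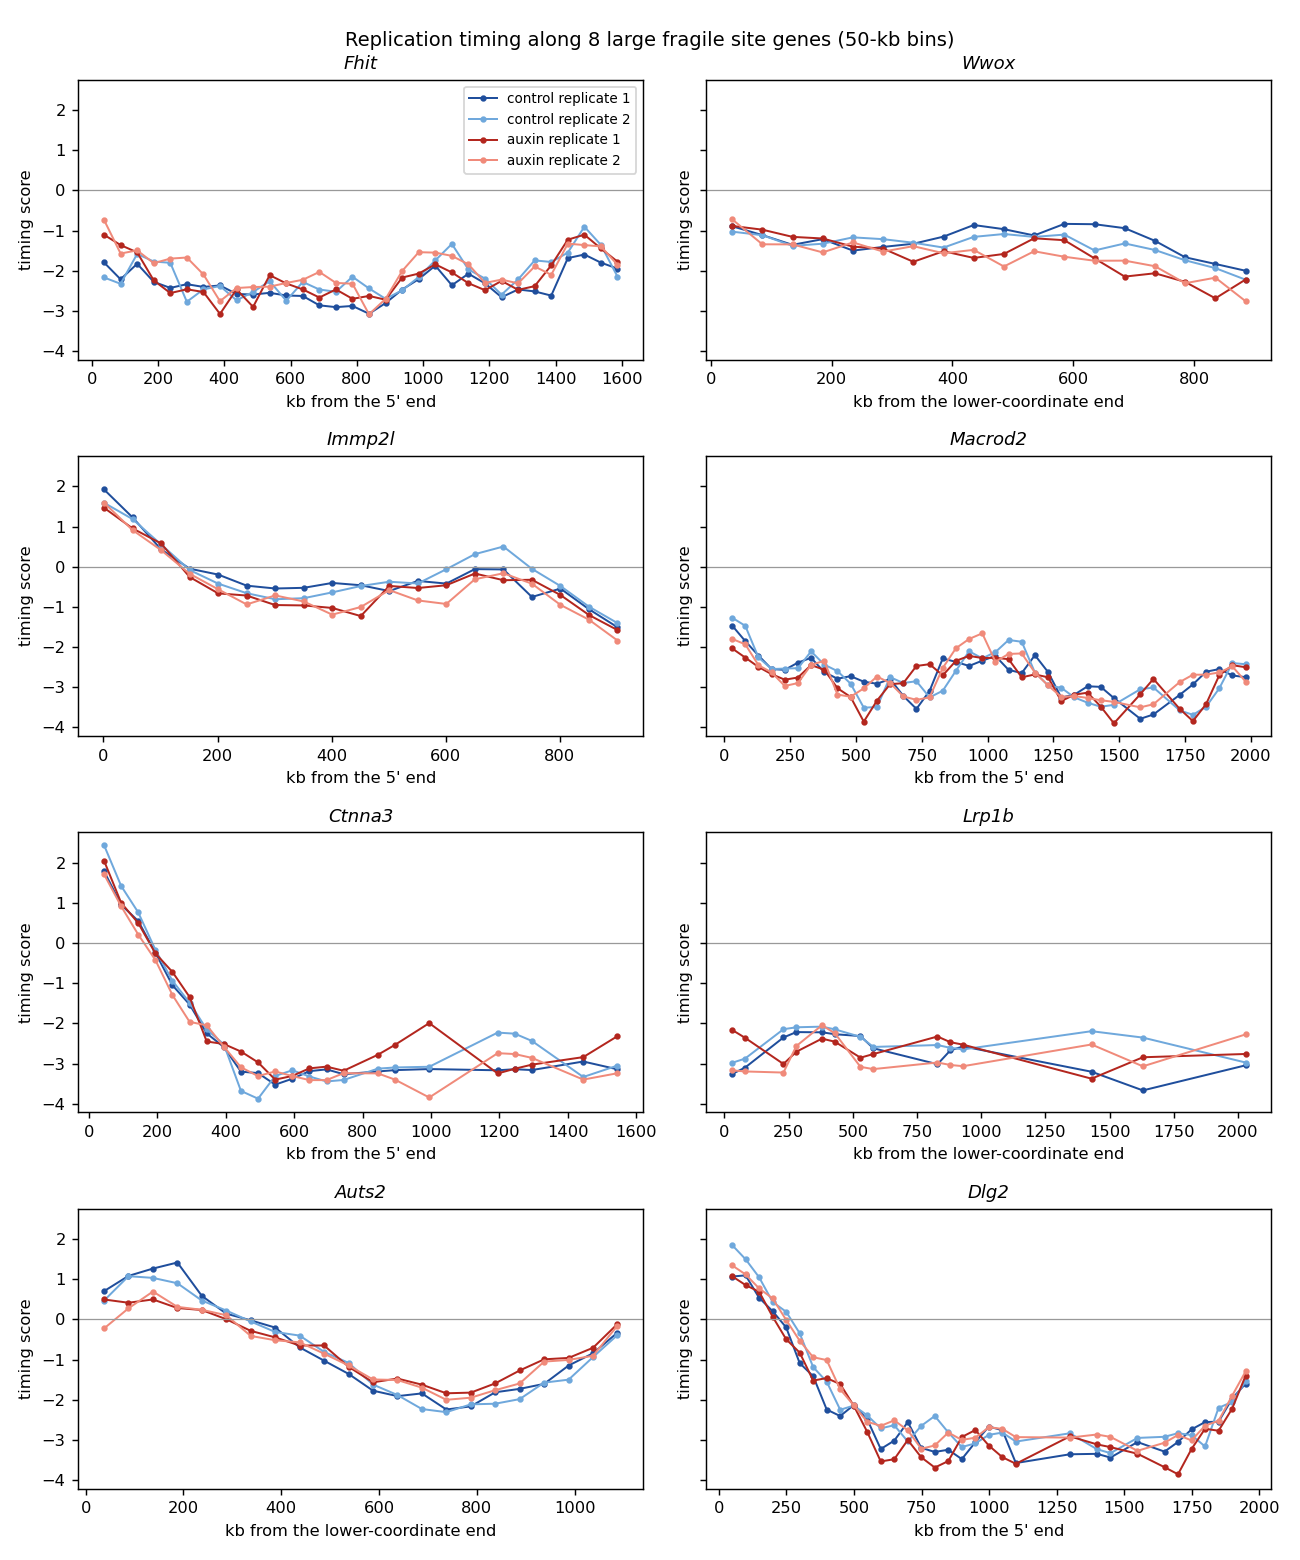
Timing score (vertical axis, score units) in 50-kb bins along each gene (horizontal axis, kb from the 5′ end, or from the lower coordinate where no strand was given) in the 2 control profiles (blue) and 2 auxin profiles (red). Ctnna3 and Dlg2 fall from early to late in all profiles, Fhit, Wwox, Macrod2 and Lrp1b stay below 0, and the profiles of Auts2 cross.

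Direction along the gene was shared by most members whose strand was given. In 4 of 5, all but Fhit, the slope from the 5′ to the 3′ end was negative in all 4 profiles, against 37.9% of 404 long genes with a strand and 35.8% of 1804 genes of any length. The direction was not shared by the 17 other large fragile site genes described below. Of the 12 of these with a strand, 0 had a negative slope in all 4 profiles and 8 (66.7%) had a positive one. The slopes of the 8 genes were shallow at the median, though not for Ctnna3 and Auts2. The median absolute slope in control was 1.12 per Mb over the 8 genes, 2.31 over 534 long genes and 3.70 over 2353 genes. With auxin it was 1.57, 2.09 and 3.23. The higher median of the 8 genes came mostly from Wwox, whose mean slope was -0.69 in control and -1.59 with auxin. In the group means Fhit, Macrod2, Ctnna3, Lrp1b and Auts2 were shallower with auxin, Immp2l was slightly steeper and Dlg2 hardly differed. A slope per Mb depends on gene length, and lengths were not matched between these sets. Apart from Auts2 and Wwox, the differences in slope between the groups lay between -0.18 and 0.30 per Mb, with limma adjusted p from 0.928 to 0.998. With one prior variance for short and long genes alike, their 95% intervals all reached beyond 2 per Mb on both sides of 0.

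**Figure D4:**
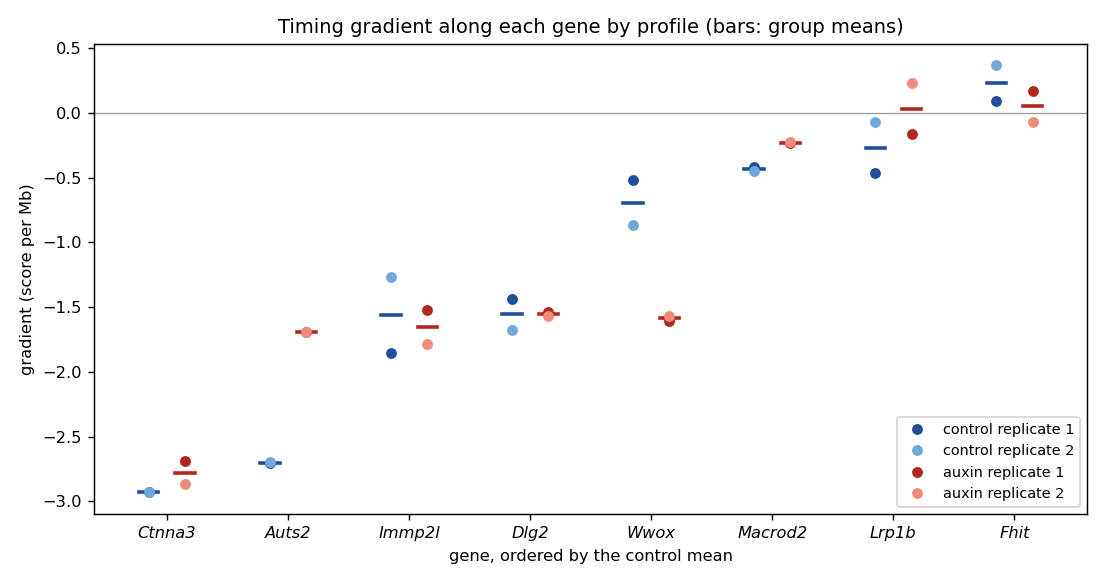
Least-squares slope of the timing score along each gene (vertical axis, score per Mb) in each profile, with bars at the group means and genes ordered by the control mean. The auxin points of Auts2 lie above both control points, at -1.69 against -2.71 and -2.69, and those of Wwox lie below, at -1.61 and -1.57 against -0.52 and -0.87.

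Counted over all 8 genes, 55 of 199 tested bins were lower with auxin without overlap (27.6%), against 26.1% of bins genome-wide. For higher bins the count was 35 (17.6%), against 26.4%. Lower bins were most frequent in Immp2l, with 14 of 19 tested bins, and Wwox, with 12 of 18. Macrod2, with 11 of 38, was near the genome-wide share, and Auts2 held 7 of 22. Higher bins numbered 11 of 32 in Fhit and 10 of 22 in Auts2. How far neighbouring bins share reads is unknown, since smoothing is not described. With a mean-dependent, robust variance 8 of the 199 bins passed, 6 later and 2 earlier, against 10.8% of 42710 bins (5.66% later and 5.17% earlier). These were 2 earlier bins of Fhit, 2 later bins each of Wwox and Auts2, and 1 later bin each of Immp2l and Lrp1b.

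A further 17 large genes known at common fragile sites were listed, among them Dmd, Cntnap2 and Magi2. Their median control score was -2.37, and 15 of 17 were late. None passed the gene body or gradient test in limma; at an unadjusted p under 0.05 there were 2 for the body and 0 for the gradient. Of the 17, 7 body means were lower and 10 higher with auxin. The largest body difference was in Il1rapl1, a synaptic receptor gene, which scored -2.92 and -2.12 in control and -1.95 and -1.11 with auxin (difference 1.00, limma adjusted p = 0.163), but only 6 windows, 2.61% of its grid, had a score. Fitted among long genes alone, its limma adjusted p was 0.0403, beside the 101 genes that passed there. Rora, a nuclear receptor gene, passed the end-to-end test. Its last 10% minus first 10% of windows was 0.99 and 1.42 in control and 0.46 and 0.08 with auxin (difference -0.93, limma adjusted p = 0.0424), and no gene passed that test when either control profile was left out.

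Among genes of 300 kb or more, the nearest in the 4 body means, by Euclidean distance in score units over 4 profiles, were Nr3c2 for Fhit (0.18), Gmds for Wwox (0.14), Phactr1 for Immp2l (0.24), Hs3st4 for Macrod2 (0.13), St18 for Ctnna3 (0.14), Cadm2 for Lrp1b (0.15), Atrnl1 for Auts2 (0.09) and Trdn for Dlg2 (0.21). Gmds scored -1.27 and -1.39 in control and -1.49 and -1.61 with auxin, and Phactr1 -0.15 and -0.19 in control and -0.62 and -0.41 with auxin. In the authors' deposited lists, 63 regions that became later and 22 that became earlier, no region overlapped any of the 8 genes. The nearest region lay 7.77 Mb from Immp2l, and neither list held a region on the chromosomes of Fhit and Auts2. The lists were drawn from these same profiles. The share of all genes that they overlap was not counted, so the lack of overlap is not a result about the 8 genes.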

How the data were processed

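Repli-seq libraries of 2 auxin and 2 control replicates, each with libraries of early and of late S phase, were analysed as 4 profiles. The authors deposited timing scores per window, quantile normalized per the file headers: sorted, the 4 columns are identical, so a shift of the whole genome cannot be seen. Bowtie2, SAMtools and bedtools were used with mm10, per the submitters' processing notes; versions, roles, filters, smoothing and the formula joining early and late reads: not given in the sources used here. That a higher score is earlier follows from the authors' deposited early-to-late list. No file gives read counts, so no depth-based interval was set.

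Genes came from RefSeq (GRCm38.p6, mm10 coordinates). A window belongs to a gene if its 6 kb, counted from its listed position, overlap it. Scores were averaged over gene bodies (at least 3 windows) and 50-kb bins (at least 3), gradients fitted with at least 17 windows, and ends compared (10% of windows each) with at least 50. Strand was taken from the RefSeq promoter table, which held 5 of the 8 genes; the other 3 were read from the lower coordinate. Groups were compared by limma 3.58.1 in R 4.3.3 (lmFit, eBayes, no trend, not robust, treatment only) over all genes or bins, with Benjamini-Hochberg adjusted p under 0.05. The fits were also run on simulated scores with independent errors and known shifts. How often shifts of the size seen in the members were called there is not reported here. SDs are over 2 profiles. Early means above 0.5 and late below -0.5. Alternatives left out each profile, added a replicate block, or changed the variance model, filters, summaries, bins and flanks. Same-numbered profiles did not deviate together (correlations 0.04 over genes, 0.04 over bins and -0.0085 over gradients), so numbers were not taken as pairs.

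The members and lists were chosen with earlier results of these data known. Named are the 8 members, listed fragile site genes that passed a test or had the 2 largest body differences, the long gene nearest each member, and genes inside or next to a member. Of the listed fragile site genes, some results are not reported here. Rora and genes named as examples of the list were chosen after their values were seen. All per-profile columns were used.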

Additional observations from a re-analysis of the deposited data

How the results depend on the processing

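No member passed the gene body test under any alternative. For gradients 2 members passed with the variance trend on window number, Auts2 and Wwox, and for end-to-end differences 1 passed with the first and last 20%, Auts2. Of the member bins 4 passed with the replicate block (2 later, 2 earlier) and 8 with trend and robust variance, against 0; the replicate block changed no other call on members. Leaving out 1 profile at a time gave 0 called members or bins each time. The sign of some body differences turned: with the median of windows to 0.0083 for Ctnna3 and 0.084 for Auts2, with 100-kb flanks to 0.021 for Auts2, and over single left-out profiles Ctnna3 ran from -0.15 to 0.10, Lrp1b from -0.26 to 0.12, Auts2 from -0.051 to 0.042 and Dlg2 from -0.19 to 0.13. Gradient differences ran from -0.39 to 0.20 in Immp2l and -0.12 to 0.13 in Dlg2. End-to-end differences ran from -0.11 to 0.11 in Immp2l (-0.063 with the 20% ends) and -0.28 to 0.84 in Lrp1b. The other members kept their sign over left-out profiles, but several sizes moved by over 1.5 times: body differences from 0.07 to 0.30 in Fhit and -0.13 to -0.04 in Macrod2, gradients from -0.32 to -0.04 in Fhit, 0.06 to 0.24 in Ctnna3 and 0.11 to 0.50 in Lrp1b, and ends from -0.88 to -0.42 in Fhit, 0.28 to 0.59 in Macrod2, 0.07 to 0.65 in Ctnna3 and 0.06 to 0.46 in Dlg2. Wwox ran from -0.40 to -0.26 in body mean and Auts2 from 1.00 to 1.01 in gradient. Over all features, body calls were 0, 740 with the window trend, 1391 with trend and robust variance, 101 among long genes and 2478 with flanks. Bin calls were 707, 2358 with the block, 4626 with trend and robust variance, 1 with all bins, and 127 without control replicate 1 or 0 without another profile. End calls were 35, 12 with 20% ends, and 0 to 9 with a profile left out. Causes were not tested.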
